A study of Mus musculus with 8 samples.

Results

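The genes described here encode the machinery of autophagy and of the lysosome, and 48 of them were chosen by symbol for their known roles. The choice was made with earlier results of these data known, so shares of these genes are descriptive only. A gene was read at the probe-set that the array annotation assigns to it alone, and 44 of the 48 had such a probe-set, out of 14860 genes on the array. Of these 44, 43 passed the filter on low expression and were tested. *Gabarapl2* had a probe-set but was removed by the filter, *Atg3*, *Atg7* and *Atg16l1* were found only on probe-sets shared with another gene, and *Park2* was named by no probe-set of the annotation used here.

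Liver RNA came from male C57Bl6J mice that started a Lieber-DeCarli liquid diet at 6 weeks of age and stayed on it for 6 weeks, with 4 mice fed alcohol (WA-811, WA-817, WA-833 and WA-836) and 4 pair-fed controls (WC-820, WC-824, WC-834 and WC-840). Alcohol was 2.06% of the diet for 3 days, 4.18% for 4 days and, by the array labels, 6.2% for the last 5 weeks, when it gave 35% of the calories, and control mice received maltose and dextrin in its place. All 8 mice were wild type, by the study's methods, which describe other mice with a *Dnmt1* allele that were not put on these arrays. One Affymetrix Mouse Exon 1.0 ST array was run for each mouse, and the authors reduced it by RMA (background correction, normalization and summary of probes) to a log2 value for each probe-set.

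Autophagy is the route by which a cell encloses its own cytoplasm, proteins or organelles in a membrane and hands them to the lysosome. A kinase complex and a lipid kinase complex start the membrane, a conjugation system attaches proteins of the LC3 family to it, and receptors such as p62 bring in the cargo. The lysosome is kept acidic by a proton pump, the V-ATPase, and breaks the cargo down with proteases, glycosidases and lipases. Transcription factors of the TFEB family drive many of these genes through a short DNA motif. In the liver the pathway is known for degrading glycogen, lipid droplets and mitochondria.

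The array medians were 5.10 to 5.14 with alcohol and 5.04 to 5.08 without it. The diets were compared by limma, which fits each probe-set and shares information on variance among them, over the 44.7% of probe-sets that the filter kept. The median difference (alcohol minus control) over these was 0.05 on the log2 scale. All 6 hepatocyte markers with a probe-set of their own, of 8 listed, passed the filter and none was called, and *Alb*, serum albumin, read 13.51 ± 0.05 on alcohol and 13.49 ± 0.04 on control (SD, n = 4 each).

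Of the 15 measured genes of lysosomal hydrolases and saposins, 10 were higher in the livers of alcohol fed mice, and none of the 8 measured genes of the autophagy machinery was called. A gene is said here to have risen or fallen when its Benjamini-Hochberg adjusted p from limma, taken over all probe-sets tested, was under 0.05. By this rule 10 of the 43 measured genes rose, or 23.3%, and none fell, while 10.2% of all probe-sets tested were higher and 5.98% were lower. All of the 10 were among the 15 genes of hydrolases and saposins, of which 66.7% rose. None of the other 28 genes was called, 19 with a positive and 9 with a negative difference. The median difference was 0.33 over the 15 hydrolase genes and 0.06 over the other 28, against 0.05 over all probe-sets. No test of the difference between these groups of genes was made. The 43 genes had a median level of 8.97 and a median SD within a diet of 0.110. Over all probe-sets tested these were 7.43 and 0.143, so the shares compared are not of probe-sets with like level and spread. At the study's own threshold (P of 0.0001 and 1.5-fold), which 1.01% of probe-sets passed as higher and 0.757% as lower, none of the 43 genes was called.

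**Figure D1:**
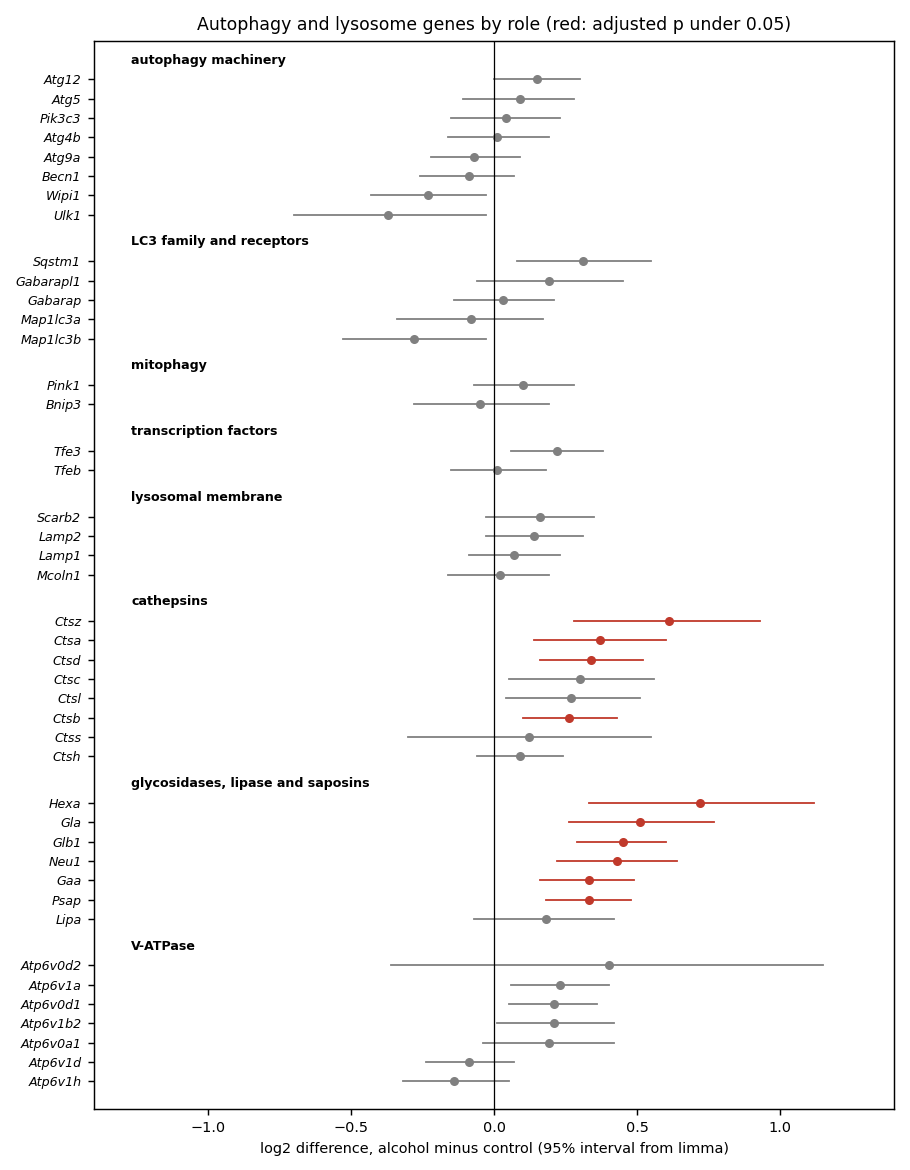
Difference in log2 value between the diets (alcohol minus control, x axis) for the 43 measured genes, grouped by role, with the 95% confidence interval from limma as a line. Red marks an adjusted p under 0.05, which was reached by 4 cathepsins and 6 genes of the glycosidase, lipase and saposin group and by no gene of another role.

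The glycosidases and the saposin precursor held 6 of the 10 calls. Below, values are log2 levels in the order WA-811, WA-817, WA-833 and WA-836 for alcohol and WC-820, WC-824, WC-834 and WC-840 for control. *Hexa*, the alpha subunit of the hexosaminidase that degrades the ganglioside GM2, read 9.27, 9.44, 8.75 and 9.61 on alcohol and 8.62, 8.28, 8.57 and 8.70 on control. Its lowest alcohol value, in WA-833, lay just above its highest control value, in WC-840. It rose 1.65-fold, with a log2 difference of 0.72 ± 0.18 (here and below ± its SE, adjusted p = 0.0243 from limma), which was the largest among the 43 genes. *Gla*, alpha-galactosidase A, which removes terminal galactose from globotriaosylceramide, read 6.66, 6.76, 6.51 and 6.98 on alcohol and 6.15, 6.06, 6.40 and 6.25 on control. The groups did not overlap and the rise was 1.43-fold (0.51 ± 0.11, adjusted p = 0.0170 from limma).

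*Glb1*, the lysosomal beta-galactosidase, gave the smallest adjusted p of the 43 genes. Its values were 7.28, 7.19, 7.22 and 7.27 on alcohol and 6.70, 6.75, 6.83 and 6.90 on control, so the alcohol fed mice were nearly alike (7.24 ± 0.04, SD, n = 4) and all lay above the controls (6.80 ± 0.09, SD, n = 4). The rise was 1.36-fold (adjusted p = 0.00499 from limma). *Neu1*, the sialidase that trims sialic acid from glycoconjugates, read 8.32, 8.22, 8.03 and 8.33 on alcohol and 7.86, 7.66, 7.73 and 7.93 on control. It rose 1.35-fold without overlap of the groups (adjusted p = 0.0160 from limma). *Ctsa*, protective protein or cathepsin A, is a serine carboxypeptidase known to form a lysosomal complex with the products of *Glb1* and *Neu1*. It read 10.91, 10.85, 10.73 and 11.16 on alcohol and 10.66, 10.42, 10.48 and 10.60 on control, and rose 1.29-fold (adjusted p = 0.0386 from limma).

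*Gaa*, the acid alpha-glucosidase that degrades glycogen in the lysosome, read 8.97, 8.92, 8.72 and 8.88 on alcohol and 8.54, 8.58, 8.56 and 8.49 on control. The controls had a mean of 8.54 with an SD of 0.04, and the gene rose 1.26-fold (0.33 ± 0.07, adjusted p = 0.0181 from limma). *Psap*, the precursor of the saposins that present sphingolipids to their hydrolases, read 12.33, 12.28, 12.21 and 12.35 on alcohol and 12.00, 11.91, 11.95 and 12.00 on control. It also rose 1.26-fold (0.33 ± 0.07, adjusted p = 0.0112 from limma), with a spread of 0.06 on alcohol and 0.04 on control (SD, n = 4 each). *Lipa*, the acid lipase that hydrolyses cholesteryl esters and triglycerides, was the 1 gene of this role that was not called. It read 11.00, 10.90, 11.32 and 10.94 on alcohol and 10.97, 10.99, 10.73 and 10.78 on control, with the highest value in WA-833, and its difference of 0.18 had a 95% interval from -0.07 to 0.42 (adjusted p = 0.305 from limma).

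Cathepsins A, B, D and Z rose, and the other 4 cathepsins measured had positive differences that were not called. *Ctsz*, a cysteine carboxypeptidase, had the largest difference of this role. It read 10.92, 11.01, 10.66 and 11.32 on alcohol and 10.60, 10.15, 10.36 and 10.37 on control, a rise of 1.52-fold (0.61 ± 0.14, adjusted p = 0.0221 from limma), and WA-833 on alcohol lay closest to the controls. *Ctsd*, the major aspartic protease of lysosomes, read 11.49, 11.51, 11.58 and 11.78 on alcohol and 11.25, 11.30, 11.21 and 11.22 on control. It rose 1.27-fold (0.34 ± 0.08, adjusted p = 0.0209 from limma). *Ctsb*, a cysteine protease abundant in liver lysosomes, read 11.69, 11.76, 11.79 and 11.87 on alcohol and 11.63, 11.47, 11.48 and 11.47 on control. The groups came within a small gap of each other through WC-820, and the rise of 1.20-fold was the smallest of the 10 (0.26 ± 0.07, adjusted p = 0.0390 from limma).

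Among the cathepsins that were not called, *Ctsc*, which activates serine proteases of immune cells, differed by 0.30 (95% interval 0.05 to 0.56, adjusted p = 0.0992). Its control mouse WC-820 read 9.57, the same as the alcohol mean, while the other controls lay between 9.06 and 9.24, and without WC-820 *Ctsc* rose by 0.40 (adjusted p = 0.0256). *Ctsl*, a cysteine endopeptidase, read 12.35, 12.18, 11.87 and 12.30 on alcohol and 11.89, 11.84, 11.93 and 11.94 on control, so that WA-833 alone lay within the control range (difference 0.27, adjusted p = 0.109). *Ctsl* rose without WA-833 (0.37, adjusted p = 0.0139), without both WA-833 and WC-824 (0.35, adjusted p = 0.0447) and with array weights (0.32, adjusted p = 0.0424). *Ctss*, a protease of antigen presenting cells, read 9.17, 9.20, 8.55 and 9.22 on alcohol and 9.35, 8.61, 8.90 and 8.79 on control, and the groups overlapped throughout (difference 0.12, 95% interval -0.30 to 0.55, adjusted p = 0.702). *Ctsh*, an aminopeptidase, differed by 0.09 (95% interval -0.06 to 0.24, adjusted p = 0.401). All adjusted p are from limma.

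**Figure D2:**
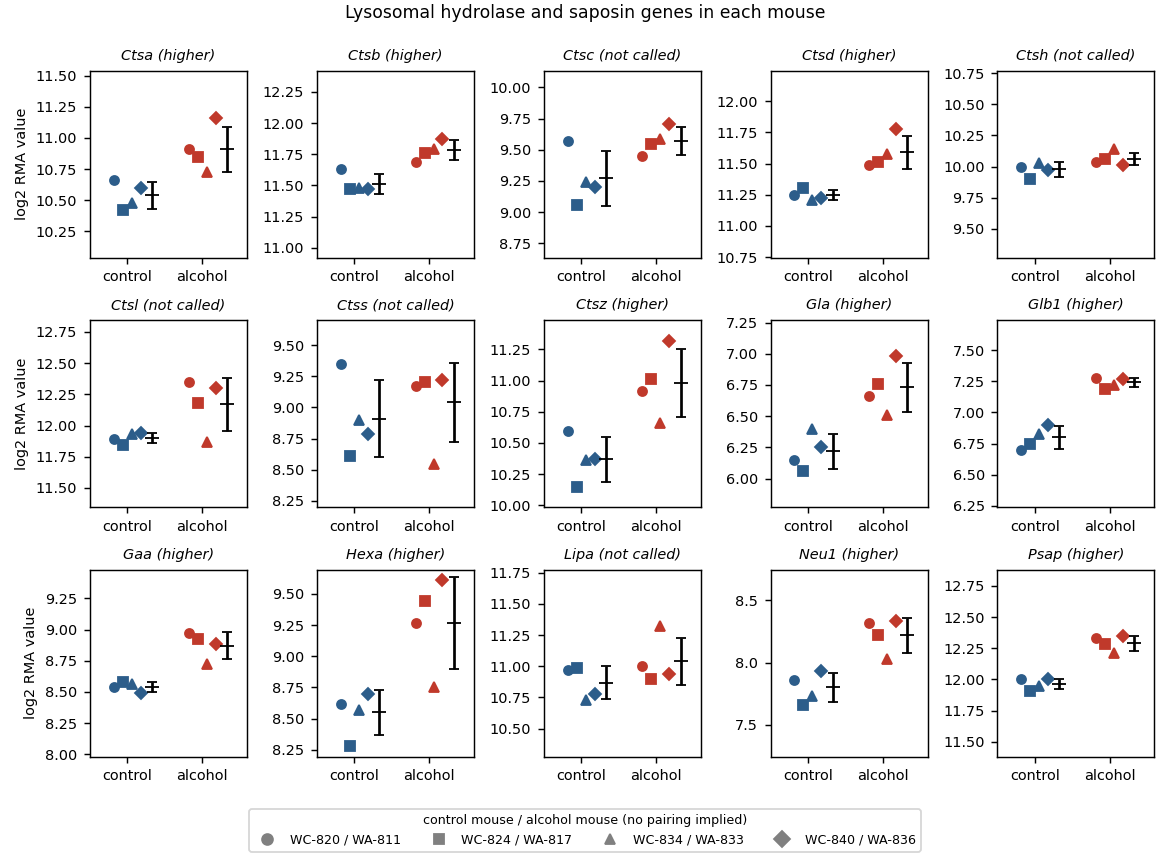
Log2 RMA value (y axis) of the 15 hydrolase and saposin genes in each of 4 control mice (blue) and 4 alcohol fed mice (red), 1 panel for each gene, with the mean ± SD of each diet in black beside the points. Every panel spans the same log2 range, and the 10 genes marked higher have no overlap between the diets.

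The values of the diets did not overlap in 10 of the 15 hydrolase genes and in 5 of the other 28, together 15 of 43 or 34.9%, and in 23.7% of all probe-sets tested. In the order used above, the median of the 15 hydrolase genes relative to the control mean was 0.37, 0.31, 0.24 and 0.44 in the alcohol fed mice and 0.06, -0.08, -0.02 and -0.00 in the controls. The same median over the other 28 genes was 0.06, 0.01, 0.02 and 0.16 on alcohol and 0.04, -0.03, -0.04 and 0.06 on control. By this median every alcohol fed mouse stood above every control for the hydrolases, and the diets overlapped for the other 28 genes. The median of the 15 includes the 10 genes without overlap, so its separation is not separate support for them.

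The same mice were high or low in many of these genes. Among the alcohol fed mice WA-836 was the highest in 10 of the 15 hydrolase genes and WA-833 the lowest in 9. Among controls WC-824 was the lowest in 11 of 15. WA-833 and WC-824 were also the lowest of their diets in the median of 12 measured markers of Kupffer cells and macrophages, which was 0.13, 0.22, -0.23 and 0.23 on alcohol and 0.27, -0.24, -0.02 and -0.02 on control. They were also lowest, WC-824 by little, in the median of 7 markers of sinusoidal endothelial cells. That was 0.29, 0.43, 0.14 and 0.27 on alcohol and 0.00, -0.01, -0.00 and 0.05 on control. For stellate cell and hepatocyte markers WA-817 was the lowest alcohol fed mouse (-0.05 and -0.02). Among controls WC-824 shared the lowest median there too, -0.02 with WC-820 for stellate cell markers and -0.06 with WC-840 for hepatocyte markers. With both WA-833 and WC-824 left out, which was done after the data were seen, 8 of the 15 hydrolase genes rose, of which 7 were among the 10, and 1 other gene, *Sqstm1*, rose as well. The median difference of the 15 was then 0.37, and 5.86% of all probe-sets were higher.

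**Figure D3:**
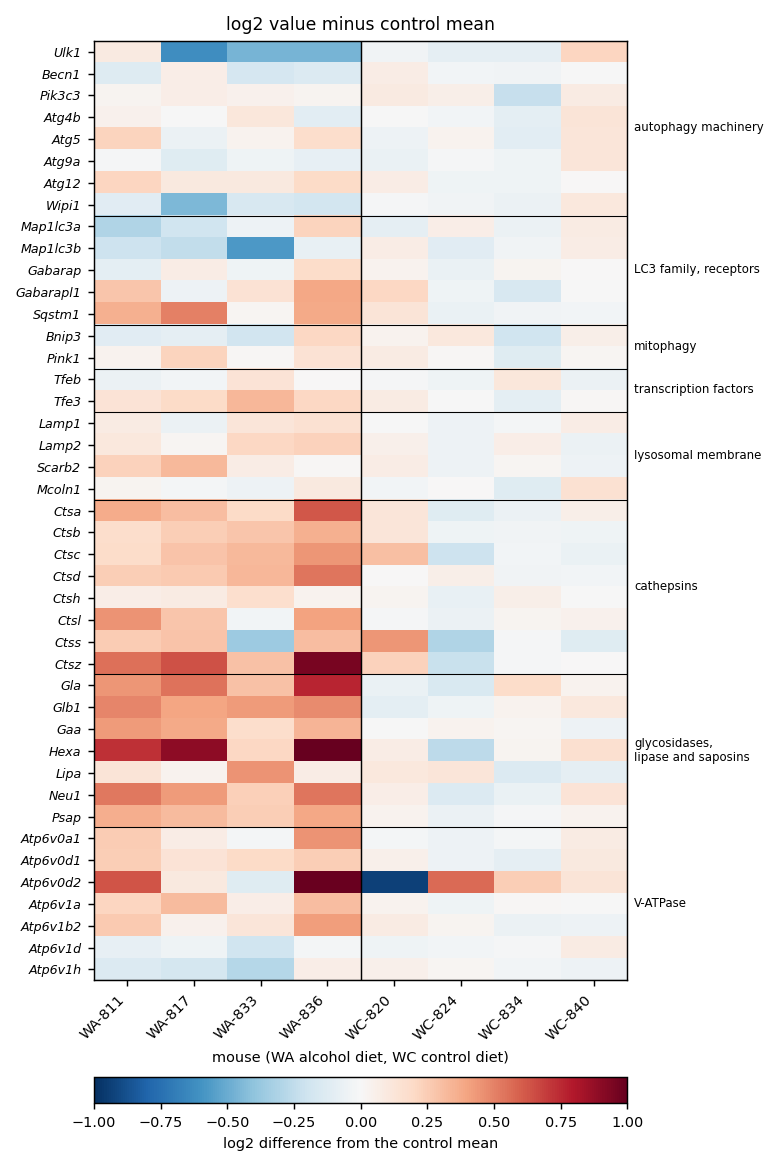
Log2 value of each of the 43 measured genes (rows, grouped by role) in each mouse (columns), minus the mean of the 4 control mice, with the colour scale capped at 1 in each direction. The 6 called genes of the glycosidase, lipase and saposin group are red in all 4 alcohol fed mice. Among these mice WA-833 is the palest for all of them but *Glb1*, while the rows of the autophagy machinery are mixed.

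Bulk liver RNA cannot tell more cells of a type from more RNA in each cell, and lysosomal hydrolases are strongly expressed by macrophages and endothelial cells of the liver as well as by hepatocytes. None of the 12 measured markers of Kupffer cells and macrophages, of which *Cd68* is also a lysosomal protein, was called, 9 of them had a positive difference, their median was 0.10, and their summed level on the linear scale ran from 3177 to 4765 on alcohol and from 3287 to 4928 on control. Of 7 measured markers of sinusoidal endothelial cells 2 were higher, all had a positive difference, the median was 0.24, and the summed level ran from 4350 to 5087 on alcohol and from 3478 to 3753 on control. The 2 were *Lyve1*, a hyaluronan receptor, with a difference of 1.23 (adjusted p = 0.00812), and *Clec4g*, a lectin, with 0.47 (adjusted p = 0.00857), both from limma. A sum on the linear scale is weighted to the probe-sets that read highest. Of these 7 that was *Clec4g*, at 11.26 on alcohol and 10.79 on control, so the sum is not a separate measure of all 7. Stellate cell markers had a median of 0.02, with *Lrat* higher and *Reln* lower of 6 measured. No matched marker of monocytes and dendritic cells (4), neutrophils (5), T and NK cells (4) or B cells (3) passed the expression filter. *Alas2*, the 1 measured erythroid marker, fell by 2.07. The part of these cells in the result for the hydrolases was not tested.

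Promoters of the lysosomal genes were read from RefSeq (GRCm38.p6), in windows of 250 bases before to 50 bases after a transcription start, because members that rose together may be compared for the motif of the TFEB family. Windows were found for 37 of the 48 genes, including 9 of the 10 that rose (all but *Ctsb*). The core CACGTG, which reads the same on both strands, was present in 14 of these 37 genes (37.8%) and in 8.09% of all 27025 genes with a window. Its longer form TCACGTG, searched on both strands and containing the core, was present in 11 of 37 (29.7%) and in 4.29% of all genes, and TCACGTGA, which contains both, in 7 of 37 (18.9%) and in 1.12% of all genes. Of the 9 genes that rose, 5 held TCACGTG on either strand (*Ctsa*, *Ctsd*, *Gla*, *Glb1* and *Gaa*). Of the 28 others with a window 6 did (*Atg3*, *Atg7*, *Atp6v0d1*, *Atp6v1a*, *Lamp1* and *Mcoln1*). These 28 include hydrolases that were not called and genes not measured alone, such as *Atg3* and *Atg7*. They are not the 28 measured genes of the other roles. The windows of *Hexa*, *Neu1*, *Psap* and *Ctsz* did not hold even the core. A match is a stretch of letters and does not show that a factor binds there. Many of these genes are known to be driven through this motif, so its share above that of all genes is no result of the diet.

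The stretches around these matches are shown 5′ to 3′ on the strand of the gene, with the matched letters in capitals, at 1 site for each gene, the longest match nearest the start. The first 5 belong to genes that rose on alcohol, and the last 4 to genes of the lysosomal membrane and the V-ATPase that were not called.
Ctsa: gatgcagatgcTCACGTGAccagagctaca
Ctsd: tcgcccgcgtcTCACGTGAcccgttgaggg
Gla: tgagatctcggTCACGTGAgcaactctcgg
Glb1: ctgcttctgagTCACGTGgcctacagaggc
Gaa: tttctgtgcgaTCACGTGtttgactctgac
Lamp1: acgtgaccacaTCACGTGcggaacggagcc
Mcoln1: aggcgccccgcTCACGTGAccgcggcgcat
Atp6v0d1: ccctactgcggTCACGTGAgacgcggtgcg
Atp6v1a: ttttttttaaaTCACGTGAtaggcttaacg

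These stretches lie in GRCm38.p6 at chr2:164833766-164833795 on the plus strand for *Ctsa*, chr7:142387908-142387937 on the minus strand for *Ctsd*, chrX:134601182-134601211 on the minus strand for *Gla*, chr9:114401018-114401047 on the plus strand for *Glb1* and chr11:119267811-119267840 on the plus strand for *Gaa*. The core began 6 bases after the start of *Ctsa* and 98, 194, 48 and 140 bases before the starts of *Ctsd*, *Gla*, *Glb1* and *Gaa*. The others lie at chr8:13159134-13159163 for *Lamp1* and chr8:3500462-3500491 for *Mcoln1*, both on the plus strand, and at chr8:105566050-105566079 for *Atp6v0d1* and chr16:44139373-44139402 for *Atp6v1a*, both on the minus strand. In these 4 genes the core began 15, 45, 3 and 131 bases before the start.

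The TFEB family factors known to bind this motif were measured as well. *Tfe3*, a transcription factor of the TFEB family, read 7.13, 7.19, 7.33 and 7.20 on alcohol and 7.08, 6.99, 6.90 and 7.01 on control. The groups did not overlap, but the difference of 0.22 (95% interval 0.06 to 0.38) was not called (adjusted p = 0.0685 from limma). *Tfeb* itself, the master regulator of lysosomal genes, read 6.22, 6.25, 6.41 and 6.28 on alcohol and 6.26, 6.23, 6.39 and 6.22 on control, with a difference of 0.01 (95% interval -0.15 to 0.18, adjusted p = 0.916 from limma) that was -0.05 after quantile normalization or median centring. RNA level does not show how much of either factor is in the nucleus, where their activity is known to be set.

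No gene of the lysosomal membrane was called, although all 4 had positive differences as deposited. *Lamp1* and *Lamp2*, the most abundant glycoproteins of that membrane, differed by 0.07 (95% interval -0.09 to 0.23) and 0.14 (-0.03 to 0.31). *Scarb2*, the receptor that carries beta-glucocerebrosidase to the lysosome, had the largest difference of this role and read 9.80, 9.89, 9.64 and 9.58 on alcohol and 9.64, 9.52, 9.59 and 9.52 on control, with WA-833 and WA-836 inside the control range (difference 0.16, adjusted p = 0.237 from limma). *Mcoln1*, a calcium channel of the lysosome, differed by 0.02 (95% interval -0.16 to 0.19), and by -0.02 after quantile normalization and -0.04 after median centring. The median over the 4 genes was 0.10.

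The V-ATPase had no called subunit, with 5 positive and 2 negative differences and a median of 0.21. *Atp6v1a*, the catalytic subunit of the cytosolic sector, read 9.29, 9.39, 9.14 and 9.38 on alcohol and 9.11, 9.03, 9.09 and 9.07 on control. Every alcohol value lay above every control value and the difference of 0.23 (95% interval 0.06 to 0.40) had an adjusted p of 0.0692 from limma. It was called without WA-833 (0.28, adjusted p = 0.0275) and with array weights (0.25, adjusted p = 0.0366). *Atp6v0d1*, a subunit of the membrane sector, likewise read 9.29, 9.18, 9.23 and 9.29 on alcohol and 9.09, 8.99, 8.95 and 9.14 on control, again without overlap (difference 0.21, adjusted p = 0.0761 from limma). *Atp6v1b2*, the B subunit of the cytosolic sector, and *Atp6v0a1*, of the membrane sector, differed by 0.21 and 0.19 (adjusted p = 0.147 and 0.245 from limma), with overlap between the diets. *Atp6v1d* and *Atp6v1h*, also of the cytosolic sector, had differences of -0.09 and -0.14 (adjusted p = 0.431 and 0.299 from limma).

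*Atp6v0d2*, an isoform known from osteoclasts and macrophages, had a difference of 0.40 with the widest interval of the V-ATPase subunits. It read 5.95, 5.42, 5.20 and 6.31 on alcohol and 4.39, 5.89, 5.57 and 5.45 on control, near the level of 5.56 at which probe-sets were removed. The control mouse WC-820 was the lowest of all and WA-836 the highest, and the 95% interval of the difference ran from -0.36 to 1.15 (adjusted p = 0.455 from limma). Without WC-820 the difference was 0.09 (adjusted p = 0.862), below that of *Atp6v1a* (0.24).

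None of the 8 measured members that build the autophagosome was called, and 4 had a positive and 4 a negative difference, with a median of -0.03. *Ulk1*, the kinase that starts autophagy, had the largest difference in size, and read 8.58, 7.87, 8.03 and 8.03 on alcohol and 8.46, 8.40, 8.40 and 8.71 on control. WA-817, WA-833 and WA-836 lay below all controls and WA-811 lay among them. The difference was -0.37 (95% interval -0.70 to -0.03, adjusted p = 0.126 from limma), and without WA-811 it was -0.52 and *Ulk1* fell with an adjusted p of 0.0165. *Wipi1*, which binds phosphatidylinositol phosphate on the growing membrane, read 6.71, 6.37, 6.66 and 6.64 on alcohol and 6.81, 6.79, 6.76 and 6.93 on control. The groups did not overlap, and the difference of -0.23 had an adjusted p of 0.113 from limma.

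*Atg12*, a ubiquitin-like protein that is joined to ATG5, also separated the groups, with 8.06, 7.94, 7.94 and 8.03 on alcohol against 7.92, 7.80, 7.80 and 7.85 on control (difference 0.15, adjusted p = 0.162 from limma). The other 5 lay closer to 0. The subunits of the lipid kinase complex *Becn1* and *Pik3c3* differed by -0.09 (95% interval -0.26 to 0.07) and 0.04 (-0.15 to 0.23). *Atg5*, the partner of *Atg12*, the protease *Atg4b*, which trims LC3, and *Atg9a*, a membrane protein that seeds the autophagosome, differed by 0.09, 0.01 and -0.07. Adjusted p from limma was 0.417 to 0.932 over these 5 genes, and their 95% intervals all lay between -0.26 and 0.28. *Pik3c3* turned to -0.02 after median centring, and *Atg4b* to -0.02 and -0.05 after quantile normalization and median centring.

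Shared probe-sets covered the remaining genes of conjugation and cannot be assigned to 1 gene. The probe-set of *Atg7*, the activating enzyme of conjugation, and *Camsap1* read 9.18, 8.99, 8.82 and 9.14 on alcohol and 8.62, 8.88, 8.73 and 8.74 on control (difference 0.29, adjusted p = 0.0750 from limma). That of *Atg3*, the enzyme that transfers LC3 to lipid, and *D930048N14Rik* differed by -0.06 (adjusted p = 0.547), and that of *Atg16l1*, which places the conjugation complex on the membrane, and *Scarna6* by -0.03 (adjusted p = 0.894).

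Members of the LC3 family and their receptor had differences of either sign and none was called. *Sqstm1*, which encodes the cargo receptor p62 and is itself a target of NRF2, read 11.74, 11.89, 11.41 and 11.77 on alcohol and 11.52, 11.32, 11.35 and 11.36 on control. WA-811, WA-817 and WA-836 lay above all controls and WA-833 lay among them. The difference was 0.31 (95% interval 0.08 to 0.55, adjusted p = 0.0737 from limma). Without WA-833 *Sqstm1* rose by 0.41 with an adjusted p of 0.0140, and it was also called with array weights and without both WA-833 and WC-824. *Map1lc3b*, the LC3 protein by which autophagosomes are usually traced, read 10.12, 10.08, 9.75 and 10.25 on alcohol and 10.40, 10.21, 10.29 and 10.40 on control (difference -0.28, 95% interval -0.53 to -0.03, adjusted p = 0.113 from limma). The diets overlapped through WA-836, which lay above the lowest control.

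Of the GABARAP branch of the same family, *Gabarap* differed by 0.03 (95% interval -0.14 to 0.21, with -0.02 and -0.03 after quantile normalization and median centring) and *Gabarapl1* by 0.19 (-0.06 to 0.45), while *Map1lc3a* differed by -0.08 (-0.34 to 0.17). *Gabarapl2* lay below the filter, at 5.28 ± 0.30 on alcohol and 5.61 ± 0.09 on control (SD, n = 4 each), and in the fit without the filter its adjusted p was 0.292. Of the genes of mitophagy, the removal of mitochondria, *Pink1*, a kinase that marks damaged mitochondria, read 9.06, 9.25, 9.04 and 9.17 on alcohol and 9.11, 9.04, 8.91 and 9.05 on control, with overlap (difference 0.10, 95% interval -0.07 to 0.28), and *Bnip3*, a receptor on the outer mitochondrial membrane, differed by -0.05 (-0.28 to 0.19).

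Other genes of the same organelles were examined from lists of 122 genes set by their roles, of which 92 were measured. These lists too were set with earlier results of these data known. Of these 12 rose (13.0%) and 7 fell (7.61%), shares near the 10.2% and 5.98% of all probe-sets, so the genes named from these lists are described one by one. Without WC-824 5 rose, and 7 each without WA-811, WC-834 or WC-840, when 5.70%, 7.94%, 5.89% and 6.14% of all probe-sets were higher. Without WC-840 1 fell, without WC-824 2, without WA-817 or WC-834 3 each and without WA-833 or WC-820 4 each, when 3.47%, 3.57%, 4.30%, 4.21%, 5.34% and 4.36% of all probe-sets were lower. The other lysosomal hydrolases and activators held 7 of the 12, from 27 measured (25.9%), with a median difference of 0.24, and 2 fell (7.41%). *Ppt1*, palmitoyl-protein thioesterase, read 8.73, 8.56, 8.58 and 8.68 on alcohol and 8.14, 8.14, 8.11 and 8.27 on control and rose 1.39-fold (adjusted p = 0.00467 from limma). *Tpp1*, a tripeptidyl peptidase, rose 1.31-fold (adjusted p = 0.0158) and *Ctsf*, cathepsin F, 1.30-fold (adjusted p = 0.0211), both from limma and both without overlap of the diets. The other members of this list that rose were *Asah1*, *Lgmn*, *Acp2* and *Dnase2a* with differences of 0.32 to 0.45. Not all hydrolases went up. *Arsb*, a sulfatase of dermatan sulfate, read 6.66, 6.39, 6.55 and 6.61 on alcohol and 7.22, 7.18, 6.81 and 7.01 on control. It was 1.42-fold lower (adjusted p = 0.0137 from limma), and *Aga*, which cleaves asparagine-linked sugars, was 1.33-fold lower (adjusted p = 0.0265 from limma). *Ppt1* and *Arsb* had 2 probe-sets each and were read at the one of higher mean. When the probe-sets of a gene were averaged, 11 of the further genes rose and 6 fell, against 12 and 7 in the reported fit. No other called gene of these lists had 2 probe-sets. The calls of *Ppt1* and *Arsb* are thus those of the probe-set read and may not hold for the gene.

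Among 16 further genes of the lysosomal membrane and of sorting, *Cln3* and *Laptm4b* rose (12.5%, against 10.2% of all probe-sets). *Cln3*, a membrane protein of the lysosome mutated in juvenile Batten disease, read 7.87, 7.99, 8.01 and 8.03 on alcohol and 7.50, 7.32, 7.33 and 7.41 on control and rose by 0.58 ± 0.07 (adjusted p = 0.00225 from limma). *Laptm4b*, also a membrane protein of late endosomes and lysosomes, read 7.16, 7.23, 7.31 and 7.55 on alcohol and 6.85, 6.64, 6.57 and 6.63 on control and rose 1.56-fold (adjusted p = 0.00534 from limma). In both genes all alcohol fed mice lay well above all controls. Of 9 other subunits of the V-ATPase and its accessory proteins 1 rose (11.1%), *Atp6ap2*, the prorenin receptor, by 1.31-fold (adjusted p = 0.0400 from limma). The median of the 9 was 0.22.

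Of 24 other autophagy genes measured none rose and 4 fell (16.7%, against 5.98% of all probe-sets), with a median of -0.02. These 4 were among the 7 lower calls of the further lists, which became 0 without the filter and 1 without WC-840. In those settings 1.22% and 3.47% of all probe-sets were lower. *Vamp8*, a SNARE protein of fusion between autophagosome and lysosome, read 10.33, 10.32, 10.31 and 10.51 on alcohol and 10.76, 10.59, 10.76 and 10.70 on control and was 1.26-fold lower (adjusted p = 0.0187 from limma). *Atg101*, a subunit of the starting kinase complex, fell 1.30-fold (adjusted p = 0.0285), the kinase *Ulk2* 1.26-fold (adjusted p = 0.0362) and *Atg2a*, a lipid transfer protein, 1.26-fold (adjusted p = 0.0377), each from limma and each without overlap of the diets. Of 16 genes of mTORC1 and nutrient sensing 2 rose (12.5%) and 1 fell (6.25%). *Prkaa1* and *Prkaa2*, the catalytic subunits of the energy sensor AMPK, rose 1.38-fold and 1.49-fold (adjusted p = 0.00582 and 0.0119 from limma). *Lamtor5*, a subunit of the Ragulator complex on the lysosome, fell 1.27-fold (adjusted p = 0.0441 from limma).

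**Figure D4:**
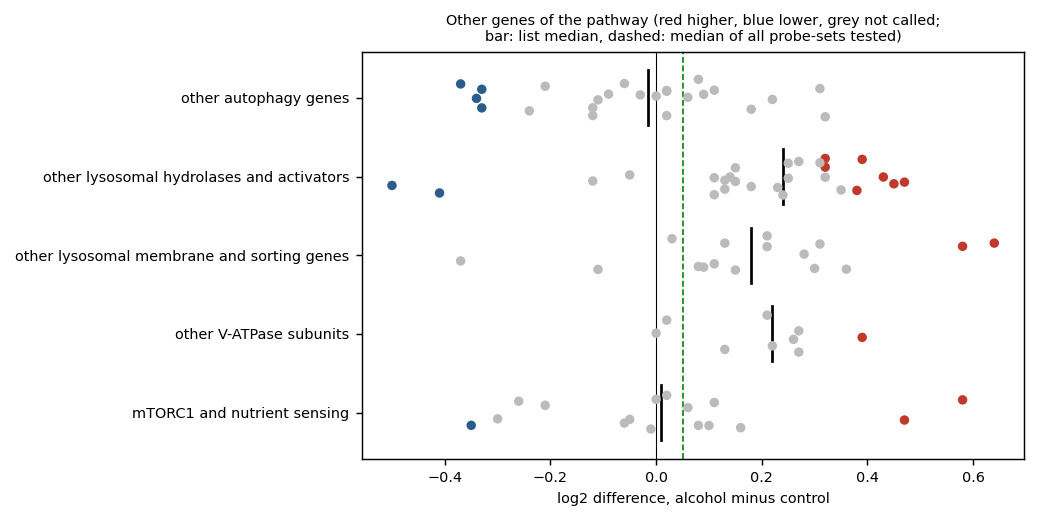
Difference in log2 value between the diets (alcohol minus control, x axis) for the 92 measured genes of 5 further lists (rows), with 1 point for each gene and a black bar at the median of the list. Red points are genes that rose and blue points genes that fell at an adjusted p under 0.05, and the medians of the hydrolase, membrane and V-ATPase lists (0.24, 0.18 and 0.22) lie to the right of the median of all probe-sets (0.05, dashed).

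The calls of *Glb1* and *Psap* held under every setting tried, and those of the other 8 genes did not. Over 18 other settings the adjusted p of *Glb1* lay between 0.00402 and 0.0309 and that of *Psap* between 0.00367 and 0.0446. *Gaa* and *Neu1* lost their call in 2 settings, *Gla* in 3, *Ctsd* in 5, *Ctsz* in 6, *Hexa* in 7, and *Ctsa* and *Ctsb* in 10. The difference of each of the 10 genes was positive in all settings, between 0.20 for *Ctsb* and 0.90 for *Hexa*. The count of 10 changed when 1 mouse was left out. It was 4 without WC-824, 5 without WC-834 or without WC-840, and 6 without WA-817. In these fits 5.70%, 5.89%, 6.14% and 6.66% of all probe-sets were higher. Without WC-820 the count was 11 and without WA-833 it was 12, when 8.28% and 10.4% of all probe-sets were higher.

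**Figure D5:**
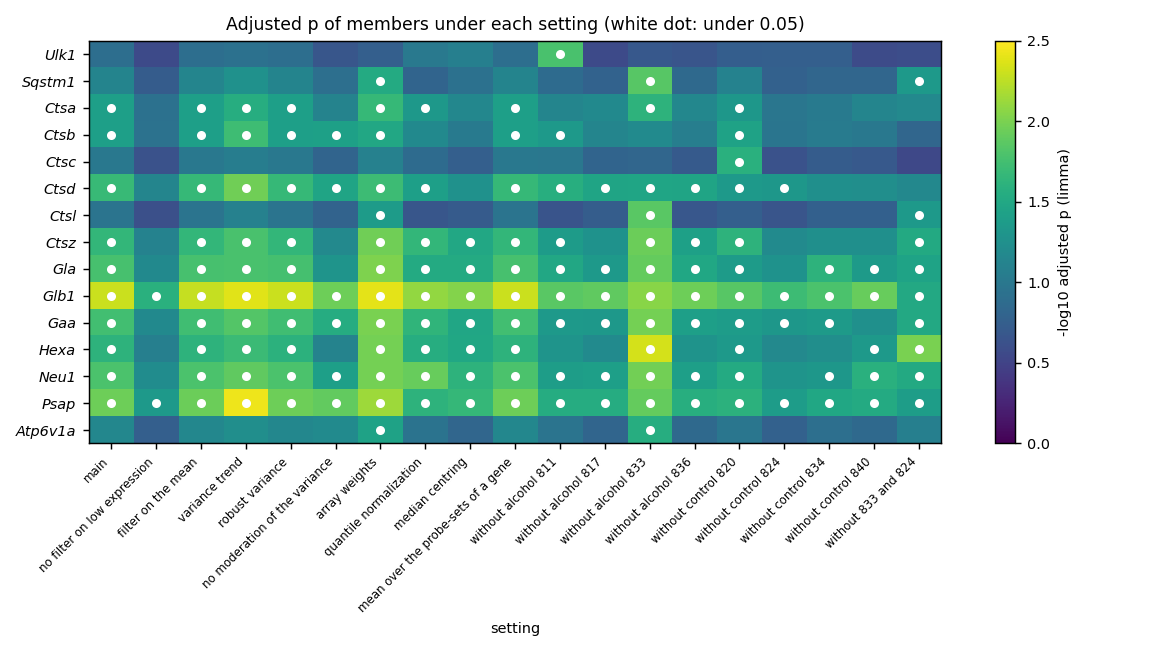
Adjusted p from limma, as its negative log10 (colour), for each of the 15 genes called in any setting (rows) under the reported fit and 18 others (columns), where a white dot marks an adjusted p under 0.05. The rows of *Glb1* and *Psap* carry a dot in every column, and the columns without the filter and without WC-824 have the fewest dots.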

How the data were processed

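The deposited table holds log2 values that the authors made by RMA in the Affymetrix Expression Console (version not given in the sources used here), with 23332 probe-sets for each of 8 arrays. RMA gives no call of detection, and levels of different probe-sets are not comparable. Probe-sets were named through the array annotation, in which 14996 carried 1 symbol, 1019 several and 7317 none, and a gene was read at its probe-set of highest mean.

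Probe-sets were ranked by the fourth-highest of their 8 values and the top 10430 kept (5.56 or more), which is the number left by the study's own filter. The diets were compared in R 4.3.3 with limma 3.58.1 (6 residual degrees of freedom), tested on simulated data first, with Benjamini-Hochberg adjustment over all 10430. Genes named with values were those called, the largest difference of a role without a call, and up to 4 called genes of each further list, and other members were added afterwards. Members and lists were chosen with earlier results of these data known. Alternatives changed the filter, variance model, weights, scaling and mice used. Intervals are 95% and the number of mice limits the precision.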

Additional observations from a re-analysis of the deposited data

Results flagged for a closer look

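In each diet group of 4 mice the gap between the most distant mouse and its nearest neighbour was compared with the range of the group, and 3 of 86 groups of values passed Dixon's 95% limit, where chance alone marks about 1 in 20. *Pik3c3* read 7.14 in the control mouse WC-834 and 7.43 to 7.46 in the other controls. *Ctsb* read 11.63 in the control mouse WC-820 and 11.47 to 11.48 in the others, and without WC-820 the call of *Ctsb* was kept. *Ctss* read 8.55 in the alcohol fed mouse WA-833 and 9.17 to 9.22 in the others.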

How the results depend on the processing

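No paired analysis was possible because the labels number each mouse separately and do not say which mice were pair-fed together. The 10 higher members became 2 without the filter, where every probe-set on the array was tested and 2.09% were higher, 6 without moderation of the variance (7.76% of all higher), and 4 to 12 with 1 mouse left out (5.70% to 10.4% of all higher). The 0 lower members became 0 to 1 with 1 mouse left out (3.47% to 5.34% of all lower). Of the further genes, the 12 higher became 6 without the filter and 5 to 16 with 1 mouse left out. The 6 include *Rragd*, which the filter had removed and which is not among the 12 (difference 0.86, adjusted p = 0.0402 from limma). The 7 lower became 0 without the filter, 2 without moderation, 1 to 6 with 1 mouse left out and 0 with WA-833 and WC-824 both left out. The membrane median of 0.10 became 0.06 after quantile normalization and 0.04 after median centring, which moved the median of all probe-sets from 0.05 to 0.01 and -0.01 and the higher share of all calls from 62.9% to 51.8% and 45.1%. Under these scalings 9 and 7 of the 15 hydrolases were higher, all among the 10, with 8.62% and 6.99% of all probe-sets higher. For single members, 719 comparisons with another setting kept their side of the threshold, 45 lost a call, 10 gained one and 0 reversed. The cause of these shifts was not tested.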
